A study of Mus musculus with 12 samples.

Results

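Plcl1 and Plcl2 encode phospholipase C-like proteins, relatives of the delta-type phospholipases C that keep the domain plan of the family but have lost catalytic activity. The pair was taken by symbol from a table of 24964 genes, 2 of which carry these names, in RNA from uterine tissue of pregnant mice at 13.5 days post coitum. There were 12 libraries in 3 groups of 4. PGR-B:OE mice had the genotype Myh11Cre; LSLPGRB/+ and overexpressed isoform B of the progesterone receptor in the myometrium, PGR-A:OE mice had the genotype Myh11Cre; LSLPGRA/+ and overexpressed isoform A there, and control mice carried Myh11Cre alone, so that the Cre was common to every group. Myh11 is a gene of smooth muscle at large, vessel walls included, and the libraries were made from uterine tissue and not from sorted muscle cells.

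Active phospholipases C split the membrane lipid PIP2 into diacylglycerol and inositol trisphosphate (InsP3), and InsP3 releases calcium from internal stores. In the myometrium this is the route by which oxytocin and other ligands of Gq-coupled receptors cause contraction. The Plcl proteins, also called PRIP-1 and PRIP-2, bind InsP3 without making it, and bind protein phosphatases and the GABA receptor-associated protein GABARAP. Progesterone acting through its receptor keeps the uterus quiet during pregnancy, and the title of the series links isoform B to the phospholipase C pathway and to contractility.

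Plcl1 lies on mouse chromosome 1, from 55405921 to 55754285 on the plus strand, and Plcl2 on chromosome 17, from 50509403 to 50688484 on the plus strand (GRCm38, GENCODE M21). The main transcript of each has 6 exons. The Plcl1 gene body holds 3 other gene models, of which 0 touch a Plcl1 exon, and 0 gene models overlap Plcl2. To show what sets the pair apart from an active enzyme, the coding sequence around the codon of the second catalytic histidine of Plcd1, a delta-type phospholipase C, is printed with the aligned stretches of both relatives, 75 bases each, 5′ to 3′ in the reading frame, with the aligned codon in capitals. The Plcd1 stretch lies at chr9:119074669-119074743 on the minus strand, that of Plcl1 at chr1:55696840-55696914 and that of Plcl2 at chr17:50607387-50607461, both on the plus strand, and each lies within 1 coding exon.
Plcl1: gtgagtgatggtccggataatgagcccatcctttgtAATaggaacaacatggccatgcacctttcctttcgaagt
Plcl2: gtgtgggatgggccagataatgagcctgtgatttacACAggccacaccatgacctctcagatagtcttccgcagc
Plcd1: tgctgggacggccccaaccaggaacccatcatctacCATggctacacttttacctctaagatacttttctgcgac
The capitals are codon 459 of Plcl1, codon 487 of Plcl2 and codon 356 of Plcd1. The Plcd1 codon encodes histidine, and the codons of Plcl1 and Plcl2 do not. At the first catalytic histidine, codon 311 of Plcd1, both relatives keep a histidine codon.

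The 2 transcripts can be told apart by short reads. Over 1086 aligned codons, Plcl1 and Plcl2 were identical at 65.5% of coding bases and 66.1% of encoded residues. Their longest shared run was 18 bases, well under the 75 bases of a read, and 0 stretches of read length occurred in both.

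Total counts lay between 31872534 and 33078483 per library. All 12 smooth muscle markers, among them Myh11, Acta2 and Cnn1, had counts in every library. Their summed level was 14720 to 19620 CPM, counts scaled to library size in PGR-B:OE, 20400 to 28500 CPM in PGR-A:OE and 15240 to 20110 CPM in Myh11Cre. PGR-A:OE replicate 4 stood apart on the first principal component, at 62.4 against -31.0 to 7.58 in the other 11 libraries, and Myh11Cre replicate 4 held the value at the other end. These 2 libraries also held the extremes of the summed decidua and trophoblast markers, with 45.5 CPM for PGR-A:OE replicate 4 and 5089 CPM for Myh11Cre replicate 4, against 201.6 to 1291 CPM elsewhere. That sum was mainly Prl8a2, with 1527 of a mean 1555 CPM in Myh11Cre, and does not stand for each marker. Dio3 and Wnt4 had their highest values in PGR-A:OE (24.8 and 9.6 CPM). Tpbpa had its highest in Myh11Cre (12.3 CPM), and Bmp2 and Prl2c2 had theirs in PGR-B:OE (8.61 and 3.9 CPM). Pgr, the receptor gene itself, averaged 223 ± 26.5 CPM in PGR-B:OE, 199.7 ± 38.5 CPM in PGR-A:OE and 121 ± 16.5 CPM in Myh11Cre (SD, n = 4 each). Its log2 change was 0.88 in PGR-B:OE (adjusted p = 0.0196) and 0.72 in PGR-A:OE (adjusted p = 0.0416) over Myh11Cre by edgeR, and the adjusted p reached 0.0784 and 0.127 when single libraries were left out. The counts are per gene and do not tell transgene from endogenous transcripts, nor isoform A from isoform B.

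Plcl2 was the abundant member and Plcl1 the scarce one. Per kilobase of gene model, Plcl2 stood at 12.1 ± 0.631 CPM in PGR-B:OE, 8.79 ± 1.84 CPM in PGR-A:OE and 8.38 ± 1.48 CPM in Myh11Cre (SD, n = 4 each). Plcl1 stood at 1.26 ± 0.161 CPM per kilobase in PGR-B:OE, 1.26 ± 0.235 in PGR-A:OE and 1.41 ± 0.205 in Myh11Cre. Among the 15 phospholipase C family genes tested, Plcl2 ranked 4 by mean level per kilobase in PGR-B:OE, 6 in PGR-A:OE and 7 in Myh11Cre. Plcl1 ranked 12, 13 and 11 in the same groups. Plcb3, a Gq-activated isoenzyme, led with 29.7 CPM per kilobase over the 12 libraries. Plcg1, Plcd1 and Plce1 followed at 11.95, 11.95 and 11.6 CPM per kilobase, then Plcl2 at 9.77, Plcg2 at 8.45 and Plcd3 at 8.31. The ranges over the 12 libraries, which pool the 3 groups, overlap between Plcl2, at 6.998 to 13.1 CPM per kilobase, and Plcg1, Plcd1, Plce1, Plcg2, Plcd3 and Plcb4. Their order is not resolved over the pooled libraries, and the ranges within each group were not compared. Plcl1, at 0.99 to 1.69 CPM per kilobase, overlapped Plcb2 and Plcb1, which lay next to it.

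**Figure D1:**
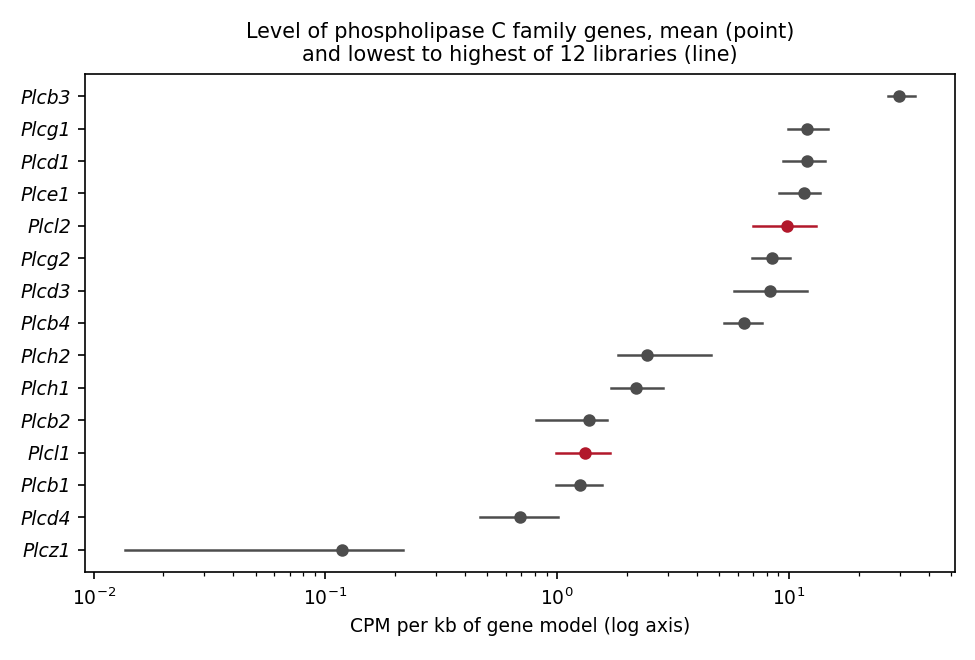
Level of the 2 inactive (red) and 13 active (grey) phospholipase C genes in CPM per kilobase of gene model on a log axis, as the mean (point) and the lowest to highest of 12 libraries (line). Plcl2 sits at 9.77 CPM per kilobase among the well-expressed isoenzymes, and Plcl1 sits at 1.31.

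In PGR-B:OE uteri, Plcl2 was higher than in controls in every library, while Plcl1 was not. Plcl2 read 48.6, 47.3, 47.9 and 52.9 CPM in PGR-B:OE replicates 1 to 4, against 29.2, 38.4, 28.4 and 39.8 CPM in Myh11Cre replicates 1 to 4. The lowest PGR-B:OE library lay above the highest control. The fold change was 1.45, a log2 change of 0.53 with an SE of 0.15 and a 95% interval of 0.21 to 0.85. In the quasi-likelihood test of edgeR, adjusted over all 15561 genes by the Benjamini-Hochberg method, this did not pass (unadjusted p = 0.00334, adjusted p = 0.242). DESeq2 put the same change just under the threshold of 0.05, at an adjusted p of 0.0499. By edgeR the adjusted p ran up to 0.346 over other settings, and up to 0.532 when 1 library was left out. A two-sided exact permutation of the library labels gave p = 0.0286, the smallest that 4 against 4 libraries allow, and 0.0858 when adjusted over the 6 tests of the 2 genes.

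Plcl1 read 8.44, 7.91, 9.67 and 7.16 CPM in PGR-B:OE replicates 1 to 4, against 8.96, 11.1, 8.93 and 7.89 CPM in Myh11Cre replicates 1 to 4. The groups overlapped over most of their range. The log2 change was -0.15 (SE 0.15, 95% interval -0.49 to 0.18, adjusted p = 0.832 by edgeR). By edgeR 0 of the 2 genes passed in this comparison, where 0.308% of all genes tested did, and 1 of 2 had an unadjusted p under 0.05, where 9.28% of all genes did. DESeq2 called 1 of the 2, where it called 1.32% of all genes, and limma voom 0, where it called 0.244%. Groups that do not overlap were found for 1 of the 2 genes and for 5.67% of all genes tested.

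**Figure D2:**
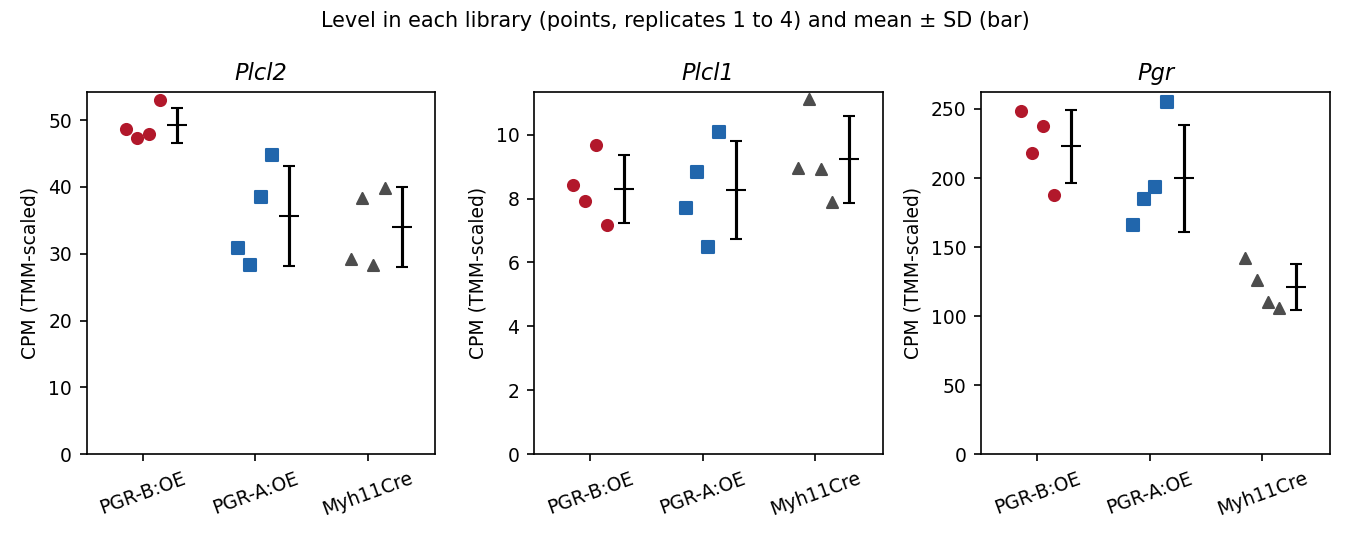
Level of Plcl2, Plcl1 and Pgr in CPM in each of the 4 libraries of PGR-B:OE, PGR-A:OE and Myh11Cre (points, replicates 1 to 4 from left to right), with the mean and SD of each group (bar). The 4 PGR-B:OE libraries hold 47.3 to 52.9 CPM of Plcl2, above all 8 others, whereas the groups overlap for Plcl1.

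In PGR-A:OE uteri neither gene stood apart from control. Plcl2 read 30.9, 28.4, 38.5 and 44.8 CPM in PGR-A:OE replicates 1 to 4, averaging 35.6 ± 7.46 CPM against 33.95 ± 5.98 CPM in Myh11Cre (SD, n = 4 each). The PGR-A:OE libraries spread across the whole control range and beyond it on the upper side, where replicate 4 lay. The log2 change of Plcl2 was 0.07 (SE 0.15, 95% interval -0.25 to 0.39, adjusted p = 0.861 by edgeR), and it was -0.06 without PGR-A:OE replicate 4 and -0.01 without Myh11Cre replicate 3. Plcl1 read 7.69, 8.84, 6.49 and 10.1 CPM in the PGR-A:OE libraries, with a log2 change of -0.16 (SE 0.15, 95% interval -0.49 to 0.18, adjusted p = 0.661 by edgeR). The log2 change of Plcl1 was -0.05 without Myh11Cre replicate 2, its highest control. By edgeR 0 of the 2 genes passed, against 0.655% of all genes tested, and 0 had an unadjusted p under 0.05, against 15.4% of all genes. DESeq2 and limma voom also called 0, against 3.83% and 0.611% of all genes. Neither gene had groups without overlap, as 10.6% of all genes did.

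Set directly against each other, the 2 overexpression groups did not overlap in Plcl2 and shared most of their range in Plcl1. Plcl2 averaged 49.2 ± 2.56 CPM in PGR-B:OE, above the 35.6 ± 7.46 CPM of PGR-A:OE (SD, n = 4 each), with 47.3 CPM in the lowest PGR-B:OE library and 44.8 CPM in the highest PGR-A:OE library. The log2 difference was 0.47 (SE 0.15, 95% interval 0.15 to 0.79, unadjusted p = 0.00795, adjusted p = 0.45 by edgeR), and the exact permutation p was 0.0286, or 0.0858 adjusted over the 6 tests. For Plcl1 the log2 difference was 0.00 (SE 0.15, 95% interval -0.33 to 0.34, adjusted p = 0.998 by edgeR). By edgeR 0 of the 2 genes passed in this comparison, against 0.116% of all genes tested, 1 of 2 had an unadjusted p under 0.05, against 8.04%, and 1 of 2 showed no overlap, against 3.85%. DESeq2 and limma voom called 0, against 0.736% and 0.135% of all genes. The comparisons with control share the same 4 Myh11Cre libraries, and each comparison of the overexpression groups reuses libraries of the other comparisons, so that the 3 results are not independent.

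The smooth muscle markers followed another order than Plcl2. Of the 12 markers, 3 had a positive log2 change in PGR-B:OE over Myh11Cre, with a median of -0.07, beside a median of -0.01 over all genes tested. In PGR-A:OE over Myh11Cre all 12 were positive with a median of 0.33, beside 0.00 over all genes. In PGR-B:OE over PGR-A:OE, where Plcl2 was the higher, 0 of the 12 were positive and the median was -0.42. By edgeR 0 of the 12 passed in any comparison, with 0, 5 and 9 at an unadjusted p under 0.05 in that order, where 9.28%, 15.4% and 8.04% of all genes were. DESeq2 called 3 higher in PGR-A:OE over Myh11Cre (Myh11, Des and Synm), where it called 3.83% of all genes. It called 2 lower in PGR-B:OE over PGR-A:OE (Des and Synm), where it called 0.736% of all genes. Limma voom called 0 in the 3 comparisons, against 0.244%, 0.611% and 0.135% of all genes. With the marker mean as a term in the fit, the log2 change of Plcl2 by edgeR was 0.57 in PGR-B:OE over Myh11Cre (adjusted p = 0.123), -0.21 in PGR-A:OE over Myh11Cre (adjusted p = 0.769) and 0.78 in PGR-B:OE over PGR-A:OE (adjusted p = 0.513). This term was chosen after seeing the data. The summed markers of every PGR-A:OE library, from 20400 CPM, lay above the highest of the other groups, 20110 CPM. By these sums PGR-A:OE shared no range with the other groups, so this fit was not taken to separate marker level from PGR-A:OE. The term itself was the mean log2 CPM of the markers, whose range was not compared. In whole tissue, a change in RNA per cell and a change in the share of cells that express a gene cannot be told apart.

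Plcl2 is also known from lymphocytes, and the markers of B and T cells were low. Their 10 genes summed to 8.997 to 15.5 CPM in PGR-B:OE, 10.5 to 14.3 CPM in PGR-A:OE and 8.93 to 10.6 CPM in Myh11Cre, less in every library than Plcl2 alone. Such sums do not give the amount of Plcl2 in those cells. Of 7 tested, 4, 5 and 3 were positive in PGR-B:OE over Myh11Cre, PGR-A:OE over Myh11Cre and PGR-B:OE over PGR-A:OE (medians 0.19, 0.33 and -0.08). By edgeR, DESeq2 or limma voom 0 passed. An unadjusted edgeR p under 0.05 was found for 1, 0 and 0, against 9.28%, 15.4% and 8.04% of all genes. The markers of uterine natural killer cells summed to 20.9 to 53.7 CPM in PGR-B:OE, 19.5 to 25.8 CPM in PGR-A:OE and 20.9 to 32.6 CPM in Myh11Cre. The top of the PGR-B:OE range was replicate 1 alone. Replicates 2, 3 and 4 held 20.9, 21.7 and 26.8 CPM, within the control range. The changes of these markers without PGR-B:OE replicate 1 were not tested. All 8 natural killer markers had a positive log2 change in PGR-B:OE over Myh11Cre, with a median of 0.34. In PGR-B:OE over PGR-A:OE all 8 were positive as well, with a median of 0.43, and in PGR-A:OE over Myh11Cre 3 of 8 were, with a median of -0.12. Their medians had the sign of the log2 change of Plcl2 in both comparisons of PGR-B:OE. The signs differed in PGR-A:OE over Myh11Cre, where the log2 change of Plcl2 was 0.07. By edgeR, DESeq2 or limma voom 0 of the 8 passed in any comparison, with 1, 0 and 0 at an unadjusted p under 0.05 in PGR-B:OE over Myh11Cre, PGR-A:OE over Myh11Cre and PGR-B:OE over PGR-A:OE. The part of leukocytes in the Plcl2 values was not tested. Of the 8 macrophage, 8 endothelial, 8 epithelial, 6 decidual and trophoblast and 4 neural markers tested, 0 passed by edgeR or limma voom in any comparison. DESeq2 called 1, the endothelial Vwf, higher in PGR-A:OE over Myh11Cre, where it called 3.83% of all genes. All 8 endothelial markers were positive there (median 0.19), with 4 at an unadjusted edgeR p under 0.05, against 15.4% of all genes. In PGR-B:OE over Myh11Cre 6 were positive (median 0.03), and in PGR-B:OE over PGR-A:OE 0 were (median -0.16).

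The ratio of Plcl2 to Plcl1 had its highest mean in PGR-B:OE. Within a library the ratio of their counts does not depend on library scaling. Per kilobase, Plcl2 exceeded Plcl1 9.32, 9.67, 8.02 and 11.96-fold in PGR-B:OE replicates 1 to 4, 6.503, 5.19, 9.597 and 7.19-fold in PGR-A:OE, and 5.28, 5.601, 5.14 and 8.16-fold in Myh11Cre. All 4 PGR-B:OE libraries except replicate 3 lay above every control, and that library lay just under Myh11Cre replicate 4. The mean log2 ratio of the raw counts was higher by 0.70 in PGR-B:OE than in Myh11Cre (SE 0.20), which is a 1.62-fold difference. An exact two-sided permutation test of the log2 ratio gave p = 0.0571, or 0.129 adjusted over the 3 comparisons. Without Myh11Cre replicate 4 the difference was 0.85 and p = 0.0286 by the same exact test. Of the 8 omissions of 1 library, this was the only 1 with a p under 0.05, and the exact p reached 0.0857 in the others. Between PGR-B:OE and PGR-A:OE the log2 ratio differed by 0.47 (SE 0.22, exact permutation p = 0.0857, adjusted 0.129). The exact p was 0.0286 without PGR-A:OE replicate 3, again the only 1 of 8 omissions under 0.05, and reached 0.171 in the others. Between PGR-A:OE and Myh11Cre it differed by 0.23 (SE 0.24, exact permutation p = 0.343). The test of the ratio is the test of whether the relatives responded differently, and with all libraries it did not pass in any of the 3 comparisons.

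**Figure D3:**
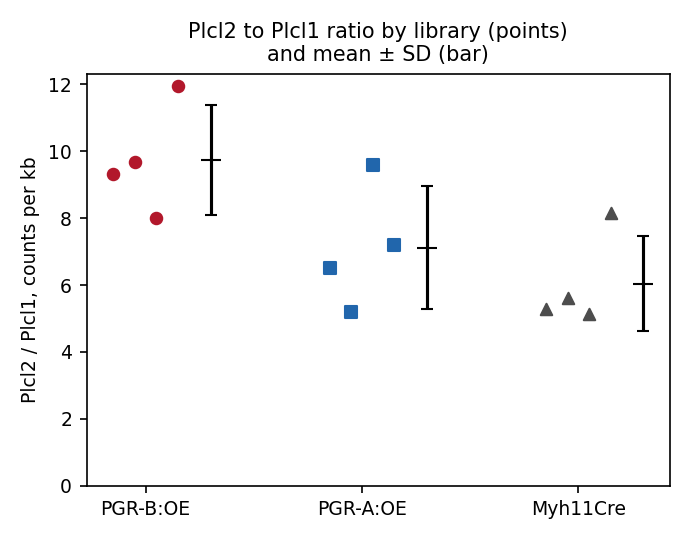
Ratio of Plcl2 to Plcl1 in counts per kilobase of gene model in each library (points) of PGR-B:OE, PGR-A:OE and Myh11Cre, with the mean and SD (bar). The mean is 9.74 in PGR-B:OE, 7.12 in PGR-A:OE and 6.05 in Myh11Cre, and Myh11Cre replicate 4 lies apart from the other controls at 8.16.

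The spread within groups is given as a description, without a test. Plcl2 had a coefficient of variation of 5.20% in PGR-B:OE, 20.9% in PGR-A:OE and 17.6% in Myh11Cre. Plcl1 varied by 12.7%, 18.6% and 14.6% in the same groups. At 202 to 349 counts of Plcl1 and 899 to 1730 counts of Plcl2 per library, counting error is smaller for Plcl2 than for Plcl1. Over all 12 libraries the 2 genes had a Pearson r of -0.11 in log2 CPM, given as a description of 12 libraries that include 3 groups.

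The relation of each gene to the level of Pgr was examined across libraries. Pgr formed separate clusters, since it lay at 106 to 142 CPM in Myh11Cre and at 166 to 255 CPM in the overexpression libraries, so no r over all 12 libraries was computed. In the 8 overexpression libraries, Plcl2 had a Pearson r of 0.64 with Pgr (exact permutation p = 0.0928, 0.197 adjusted over 4 tests) and a Spearman rho of 0.48 (exact permutation p = 0.243, adjusted 0.243). Plcl1 had a Pearson r of 0.63 (exact permutation p = 0.0986, adjusted 0.197) and a Spearman rho of 0.57 (exact permutation p = 0.151, adjusted 0.201). Without the 2 libraries farthest from the median of Pgr, PGR-A:OE replicates 1 and 4, r was 0.53 for Plcl2 (exact permutation p = 0.294, n = 6) and 0.52 for Plcl1 (exact permutation p = 0.282, n = 6). PGR-B:OE replicate 4 had the highest Plcl2 and the lowest Pgr of its group, and without it r for Plcl2 was 0.88 (exact permutation p = 0.0113, n = 7). Of the 8 omissions of 1 library, only this 1 gave a p under 0.05 for Plcl2, and the exact permutation p reached 0.287 in the others. These 8 libraries belong to 2 groups that differ in Plcl2, so the group difference enters r.

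A fit with the group terms removes that difference and leaves the relation within groups. A doubling of Pgr went with a log2 change of 0.30 in Plcl2 (SE 0.32, adjusted p = 0.768) and of 0.64 in Plcl1 (SE 0.29, unadjusted p = 0.0472, adjusted p = 0.431), from the edgeR fit adjusted over 15560 genes. Of all genes tested 1 passed, which is 0.00643%, and 1786 had an unadjusted p under 0.05. The gene that passed was Olfm4, which encodes a secreted epithelial glycoprotein and is named after its value was seen. It passed narrowly (adjusted p = 0.0499 by edgeR), with a slope of 22.7 log2 units per doubling of Pgr. Within groups Pgr deviated from its mean by only -0.25 to 0.37 log2 units, so that slope reaches far beyond the data. Whether single libraries carry the slope was not tested. The slope of Plcl2 was -0.23 without PGR-A:OE replicate 4, the library with the highest Pgr. In Myh11Cre the highest Pgr was in replicate 1 and the highest Plcl2 in replicate 4, which had the lowest Pgr.

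**Figure D4:**
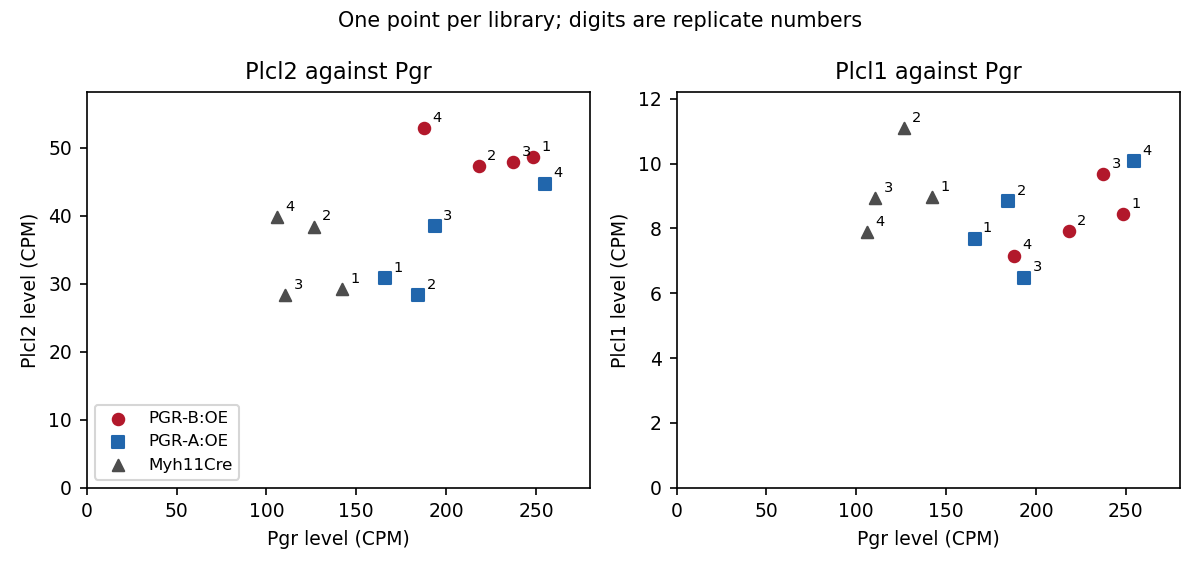
Level of Plcl2 (left) and Plcl1 (right) against the level of Pgr, in CPM, with 1 point per library and the replicate number beside it. The PGR-B:OE libraries keep Plcl2 between 47.3 and 52.9 CPM while their Pgr runs from 188 to 248 CPM, and PGR-A:OE replicate 4, with 255 CPM of Pgr, holds 44.8 CPM of Plcl2.

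Genes whose pattern over the 12 libraries was most like that of each relative were taken from 11338 named genes of at least 5 CPM, as a description. For Plcl2 they were Gata6, a transcription factor gene (r = 0.94), Prkcb, a protein kinase C activated by diacylglycerol and calcium (0.89), Ptn, the gene of the growth factor pleiotrophin (0.87), Cpz, a carboxypeptidase gene (0.84), and Fbxl12 (0.83). Each had its highest group mean in PGR-B:OE, which the choice favours, since the correlation takes in the group difference of Plcl2. Gata6 averaged 14.7 CPM in PGR-B:OE, 11.3 CPM in PGR-A:OE and 10.98 CPM in Myh11Cre, and Ptn averaged 983, 326 and 212 CPM in the same groups. The genes that ran most against Plcl2 were Klhl4 (r = -0.88), Ddah1, which breaks down inhibitors of nitric oxide synthase (-0.86), and Fgfrl1, a decoy-like receptor of fibroblast growth factors (-0.84). For Plcl1 the most alike were Erbin (r = 0.91), Cpd (0.89), Baz2b (0.88), Hoxb3 (0.87) and Inpp5f (0.86). The most unlike Plcl1 were Afg3l2 (-0.92), Mvd (-0.91) and Cluh (-0.89). Erbin averaged 95.7 CPM in PGR-B:OE, 93.8 CPM in PGR-A:OE and 100.5 CPM in Myh11Cre.

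Among the active isoenzymes, Plcd4 had the largest fold change of PGR-B:OE over Myh11Cre. Of 13 active phospholipase C genes, 0 passed by edgeR in any comparison. Of all genes, 0.308% passed in PGR-B:OE over Myh11Cre, 0.655% in PGR-A:OE over Myh11Cre and 0.116% in PGR-B:OE over PGR-A:OE. The median log2 change was -0.08 in PGR-B:OE over Myh11Cre, 0.00 in PGR-A:OE over Myh11Cre and -0.14 in PGR-B:OE over PGR-A:OE, beside -0.01, 0.00 and 0.00 over all genes tested. In each comparison 1 of the 13 had an unadjusted p under 0.05, near or below the 9.28%, 15.4% and 8.04% of all genes, and it was Plcd4, a delta-type isoenzyme. Plcd4 averaged 1.55 ± 0.114 CPM in PGR-B:OE, 2.13 ± 0.288 CPM in PGR-A:OE and 2.82 ± 0.552 CPM in Myh11Cre (SD, n = 4 each). Its log2 change was -0.86 in PGR-B:OE over Myh11Cre (SE 0.18, adjusted p = 0.0887 by edgeR). The groups did not overlap, as for 5.67% of all genes, and Myh11Cre replicate 4, at 1.995 CPM, lay apart from the other controls. DESeq2 called Plcd4 lower there, where it called 1.32% of all genes. DESeq2 called 0 of the 13 in the other comparisons, against 3.83% and 0.736% of all genes. Limma voom called 0 in all 3, against 0.244%, 0.611% and 0.135% of all genes. The Gq-activated Plcb3 averaged 120 CPM in PGR-B:OE, 132 CPM in PGR-A:OE and 127 CPM in Myh11Cre.

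**Figure D5:**
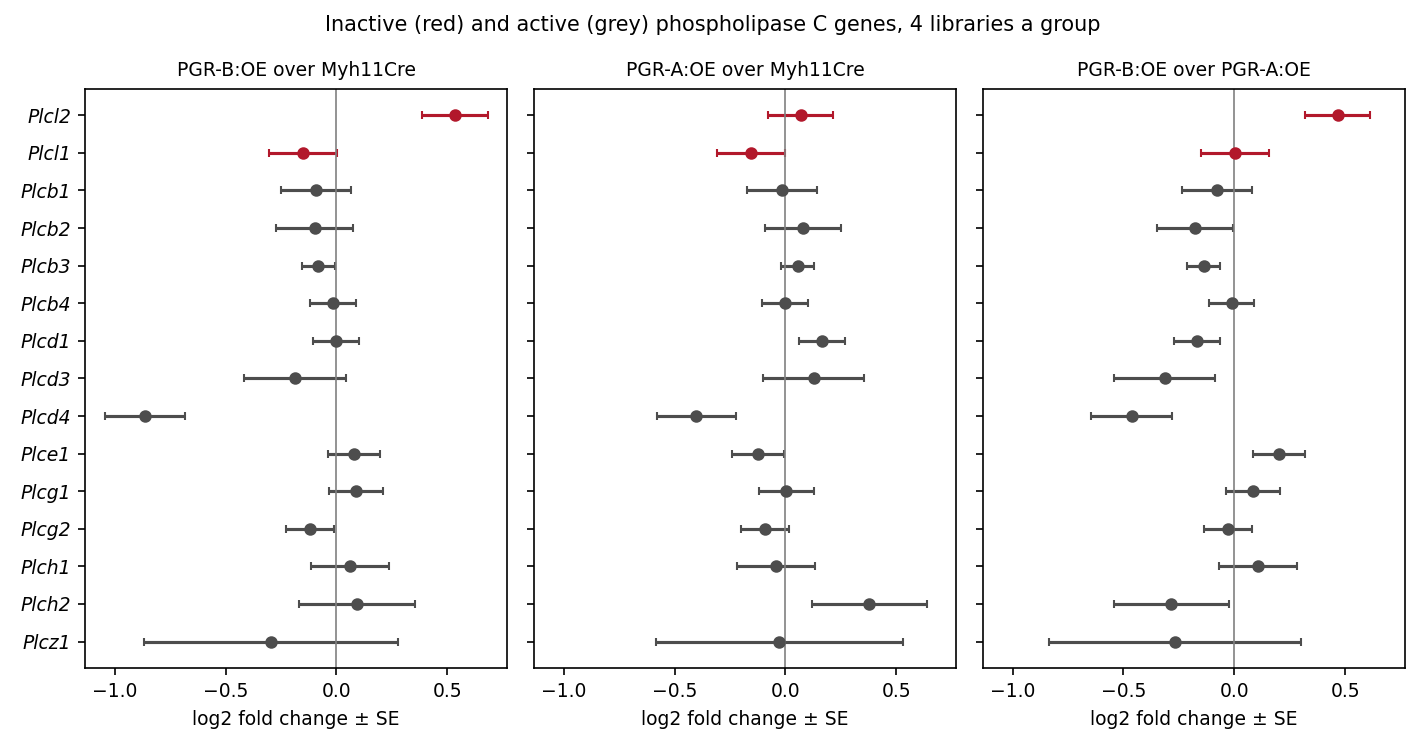
Log2 fold change with its SE for Plcl2 and Plcl1 (red) and 13 active phospholipase C genes (grey) in PGR-B:OE over Myh11Cre, PGR-A:OE over Myh11Cre and PGR-B:OE over PGR-A:OE, from 1 fit of 12 libraries. In PGR-B:OE over Myh11Cre, Plcl2 lies at 0.53 and Plcd4 at -0.86, farther from 0 than the other members.

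Among genes that handle InsP3 and its lipid precursor, 0 passed by edgeR. Of 13 InsP3 receptor and InsP3 metabolism genes, 1, 4 and 2 had an unadjusted p under 0.05 in PGR-B:OE over Myh11Cre, PGR-A:OE over Myh11Cre and PGR-B:OE over PGR-A:OE, against 9.28%, 15.4% and 8.04% of all genes. Their median log2 changes were -0.07, 0.00 and -0.04. DESeq2 called 1, Itpkb, higher in PGR-A:OE over Myh11Cre, where it called 3.83% of all genes, and limma voom called 0. Itpkb, a kinase that phosphorylates InsP3, averaged 79.9 CPM in PGR-B:OE, 97.4 CPM in PGR-A:OE and 72.6 CPM in Myh11Cre, a log2 change of 0.42 in PGR-A:OE over Myh11Cre (adjusted p = 0.0516 by edgeR). Itpr2, an InsP3 receptor, averaged 18.5 CPM in PGR-B:OE against 14.8 CPM in Myh11Cre (0.32, adjusted p = 0.467 by edgeR). Inpp5a, a phosphatase that removes the 5-phosphate of InsP3, averaged 58.6 CPM in PGR-B:OE, below the 71.2 CPM of PGR-A:OE (-0.28, adjusted p = 0.303 by edgeR). Of 22 genes of PIP2 supply and diacylglycerol removal, 0 passed by edgeR, DESeq2 or limma voom, with 1, 4 and 3 at an unadjusted p under 0.05, against the same shares of all genes, and medians of -0.01, -0.04 and 0.02. The diacylglycerol kinase Dgkg, the lowest p of that list in PGR-A:OE over Myh11Cre, averaged 24.9 CPM in PGR-B:OE, 16.1 CPM in PGR-A:OE and 28.3 CPM in Myh11Cre (-0.81 in PGR-A:OE over Myh11Cre, adjusted p = 0.213 by edgeR).

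Of 15 tested genes of known Plcl partners, among them those of GABARAP and the catalytic subunits of protein phosphatases 1 and 2A, 0 passed by edgeR, DESeq2 or limma voom. An unadjusted p under 0.05 was found for 1, 1 and 0 of them in PGR-B:OE over Myh11Cre, PGR-A:OE over Myh11Cre and PGR-B:OE over PGR-A:OE, fewer than the 9.28%, 15.4% and 8.04% of all genes, and their medians were -0.06, -0.08 and 0.01. Ppp2cb, a catalytic subunit of protein phosphatase 2A, averaged 51.8 CPM in PGR-B:OE against 56.5 CPM in Myh11Cre (-0.12, adjusted p = 0.507 by edgeR). Ppp2ca, the other catalytic subunit, averaged 219 CPM in PGR-A:OE against 258 CPM in Myh11Cre (-0.23, adjusted p = 0.214 by edgeR).

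Of 18 genes of Gq-coupled receptors and G proteins of contraction, 0 passed by edgeR in any comparison, with 2, 5 and 4 at an unadjusted p under 0.05 in PGR-B:OE over Myh11Cre, PGR-A:OE over Myh11Cre and PGR-B:OE over PGR-A:OE, against 9.28%, 15.4% and 8.04% of all genes. Their median log2 changes were -0.05, 0.11 and -0.30, the last beside -0.42 for the smooth muscle markers. DESeq2 called 1, the adrenergic receptor gene Adra1a, higher in PGR-A:OE over Myh11Cre, where it called 3.83% of all genes, and limma voom called 0. Adra1a was scarce, at 0.835 CPM in PGR-B:OE, 1.04 CPM in PGR-A:OE and 0.426 CPM in Myh11Cre. Of 16 genes of calcium entry and protein kinase C, 0 passed by edgeR, with 5, 3 and 6 at an unadjusted p under 0.05 in the same order, against the same shares of all genes, and medians of 0.01, 0.11 and -0.06. DESeq2 called Stim1 higher in PGR-B:OE over Myh11Cre, where it called 1.32% of all genes, and limma voom called 0 of the list. Stim1, the calcium sensor of the internal store, averaged 79.3 ± 10.5 CPM in PGR-B:OE, 69.99 ± 1.19 CPM in PGR-A:OE and 62.8 ± 2.7 CPM in Myh11Cre (0.34 in PGR-B:OE over Myh11Cre, adjusted p = 0.163 by edgeR). Prkcb averaged 61.1 ± 4.11 CPM in PGR-B:OE, 50.5 ± 4.25 CPM in PGR-A:OE and 47.1 ± 7.0 CPM in Myh11Cre (0.38 in PGR-B:OE over Myh11Cre, adjusted p = 0.243 by edgeR).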

How the data were processed

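The authors deposited 1 table of read counts per gene with gene lengths, whole numbers that are not normalized. The submitters' processing notes list featureCounts, DESeq2, Subread 1.6.4, Bowtie2 2.2.5 and STAR 2.7.0f, with the builds mm10 and GRCm38. Which tool did which step, the annotation and whether counting used strand is not stated there. Titles gave groups and replicate numbers. Nothing says that replicates are separate animals, so p-values measure only how these samples vary, which may be technical.

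Genes were kept with filterByExpr (15561 tested, Plcl1, Plcl2 and Pgr among them), scaled by TMM, the trimmed mean method of edgeR, and fitted over all 12 libraries with edgeR 4.0.16 in R 4.3.3, by a robust quasi-likelihood test with Benjamini-Hochberg adjustment. An adjusted p under 0.05 counts as passing. CPM uses TMM-scaled library sizes, and levels per kilobase use the deposited lengths. Single values were tested by exact permutation. Alternatives used DESeq2 1.42.0 and limma 3.58.1. Within a group, the closest pair of libraries had a chi-square of 20.8 per gene, far above sampling noise. The code was tested on simulated data.

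Sequences and positions are from GENCODE M21 on GRCm38, the build in the notes, and codons were aligned with Biopython 1.88. The members, gene lists and tests were chosen with earlier results of these data known. Named genes are both relatives, up to 3 members of each list with the lowest p, and the 5 most and 3 least correlated genes. Others were named outside this rule, namely Pgr, Olfm4, the phospholipase C genes ordered by level, single cell type markers and Oxtr, flagged for 1 library. One gene of the calcium and protein kinase C list is not reported here.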

Additional observations from a re-analysis of the deposited data

Results flagged for a closer look

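In 24 groups of 4 libraries examined, 3 held a library far from the other 3, where chance alone flags about 1 group in 20. The Plcl2 to Plcl1 count ratio of Myh11Cre replicate 4 was 5.042, against 3.18 to 3.46 in the other controls. Plcd4 in Myh11Cre replicate 4 was 1.995 CPM, the lowest of the controls, whose highest was 3.15 CPM. Oxtr, the oxytocin receptor gene, reached 14.13 CPM in replicate 4 of PGR-A:OE, whose lowest library held 3.37 CPM.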

How the results depend on the processing

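Plcl2 in PGR-B:OE over Myh11Cre kept its direction in all 18 other fits and passed in 1, by DESeq2 (0.539, adjusted p = 0.0499). Without 1 library its log2 change ran from 0.458 to 0.62 (adjusted p from 0.188 to 0.532 by edgeR), and in PGR-B:OE over PGR-A:OE from 0.374 to 0.595. Plcl1 did not pass in any fit, and ran from -0.232 to -0.048 in PGR-B:OE over Myh11Cre and from -0.265 to -0.053 in PGR-A:OE over Myh11Cre. Its difference between the overexpression groups changed sign, from -0.095 to 0.112 without 1 library, and was -0.041 with total counts only and 0.117 without both PGR-A:OE replicate 4 and Myh11Cre replicate 4. Plcl2 in PGR-A:OE over Myh11Cre ran from -0.06 to 0.164, and to -0.211 with the smooth muscle mean as a term, chosen after seeing the data. The Plcl2 slope on Pgr ran from -0.229 to 0.524, and r from 0.485 to 0.876. The Plcl2 to Plcl1 difference ran from 0.597 to 0.854 in PGR-B:OE over Myh11Cre and from 0.333 to 0.629 in PGR-B:OE over PGR-A:OE, and the first was 0.854 without both PGR-A:OE replicate 4 and Myh11Cre replicate 4, also chosen after seeing the data.

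Pgr ran from 0.82 to 0.969 in PGR-B:OE and passed in 2 of 8 fits, without Myh11Cre replicate 1 or PGR-B:OE replicate 4. In PGR-A:OE it ran from 0.58 to 0.807 and passed in 1 of 8, without PGR-A:OE replicate 1. With the replicate block Pgr did not pass (0.88 in PGR-B:OE, 0.724 in PGR-A:OE), nor in PGR-A:OE with the 8 libraries compared (0.723), without both replicates 4 (0.519) or with the muscle term (0.648). The block changed no other call of these 3 genes, and the samples share only a number (correlations of same-numbered deviations from -0.257 to 0.19).

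Genes called in PGR-B:OE over Myh11Cre, PGR-A:OE over Myh11Cre and PGR-B:OE over PGR-A:OE were 48, 102 and 18. Without 1 library they ran from 22 to 48, 32 to 99 and 11 to 31. DESeq2 gave 217, 571 and 124. The block gave 32, 69 and 11, and the 8 libraries compared gave 63 in the second and 10 in the third. Without both replicates 4 the first was 91 and the third 38. With the muscle term the second was 20 and the third 0. The causes were not tested. Depth limits Plcl1 more than Plcl2, with 202 to 349 counts a library.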
